A study of Mus musculus with 7 samples.

Results

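The ULK complex starts autophagy, the process by which a cell encloses parts of its own cytoplasm in a membrane and delivers them to the lysosome for breakdown. It is built from a protein kinase, ULK1 or ULK2, and from ATG13, ATG101 and the large scaffold RB1CC1 (also called FIP200). The kinase mTORC1 restrains it in fed cells and AMPK activates it when energy is low, and blood stem cells are known to depend on autophagy for their long-term maintenance. The genes of these subunits, Atg13, Ulk1, Ulk2, Atg101 and Rb1cc1, were described here in mouse haematopoietic stem cells treated with drugs that disturb DNA replication. They were found by symbol in the deposited expression table: 5 of 5 were present among 52224 genes, and 5 of 5 passed the filter on low values together with 13865 genes in all. The set was chosen by the FPKM of Atg13 in these libraries, with its difference between the drug and DMSO groups in view, so the level of Atg13 is given as a description with no test. The other 4 genes were taken in as the known partners of ATG13 and were tested in a model over all genes.

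The cells were wild-type C57BL/6J bone marrow cells, sorted as lineage-negative, Sca-1 and c-Kit positive cells with CD150 and without CD48, and were then cultured for 48 h. They received the solvent DMSO (n = 3 libraries), gemcitabine at 0.5 µM (Gem, n = 2), a cytidine analogue that enters DNA, or hydroxyurea at 100 µM (HU, n = 2), which blocks the enzyme that makes deoxynucleotides. The labels give no age and no mouse or culture for any library, so that a p-value here reflects only library-to-library spread, part or all of which may be technical. Values are FPKM, fragments per kilobase of transcript scaled to the mapped fragments of the library, and the sequencing depth is unknown.

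Some facts of the whole table bear on every gene below. The DMSO libraries had FPKM sums over all genes of 818775 to 832979, the Gem libraries of 703016 to 729258 and the HU libraries of 647760 to 651315. The number of genes above 0 FPKM differed the other way, at 21251 to 23047 for DMSO libraries, 27887 and 29158 for Gem and 29687 and 31153 for HU, and the groups did not overlap in either measure. The median log2 fold change over all genes tested was -0.25 in Gem and -0.30 in HU. After trimmed-mean scaling, which brings the bulk of the genes of each library to a common level, the median changes were 0.01 and 0.01. Values are therefore given both as deposited and after this scaling. Among the defining stem cell genes Slamf1, which encodes CD150, reached at most 1.25 FPKM in any library, Hoxb5 at most 0.31 and Fgd5 at most 0.5, whereas Kit was at 40.2 to 48.22 in DMSO and as low as 28.98 in a drug library. Cd48, the marker that the sort selected against, was at 201.73 to 223.44 FPKM in DMSO and as low as 101.52 in a drug library. Summed FPKM of 11 sort and identity markers was 433 to 464 in DMSO, 318 and 333 in Gem and 275 and 288 in HU. That sum includes Cd48 and also Cd34, at 117.22 to 128.47 in DMSO, so it does not measure stem cells alone. Of the 8 tested, 3 fell in Gem and 4 in HU as deposited, beside 23.2% and 35.5% of all genes tested. The summed FPKM of 8 monocyte and macrophage markers was 25600 to 34800 in DMSO and 35000 to 39000 in the drug libraries, although 2 of the 8 fell in Gem and 5 in HU. That of 10 neutrophil markers was 11400 to 18300 in DMSO and 11400 to 15200 in the drug libraries, with 2 and 3 that fell. That of 8 erythroid markers was 51.9 to 98.1 and 24.7 to 33.5, with 3 and 1 of the 6 tested that fell. Of the markers of all 8 cell types examined, 0 passed as higher in either drug in limma as deposited. Of all genes tested 1.5% did in Gem and 4.46% in HU. Their part in the results was not tested, and in bulk RNA fewer cells of a type and less RNA per cell cannot be told apart.

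Atg13 lies on chromosome 2 (91674618 to 91710576, minus strand) in the mouse annotation of build GRCm38, with 6 transcripts of up to 17 exons. Its start region is shared with Harbi1, a gene derived from a transposase, which is read in the other direction. The start sites of the pair in RefSeq (build GRCm38.p6) lie 260 bases apart. The sequence is shown because a change at a shared start region could touch both genes. It covers chr2:91710543-91710842 on the minus strand, written 5′ to 3′, 250 bases before and 50 after the start of Atg13, and the capitals mark the 241 bases that also belong to the same window of Harbi1.
Atg13: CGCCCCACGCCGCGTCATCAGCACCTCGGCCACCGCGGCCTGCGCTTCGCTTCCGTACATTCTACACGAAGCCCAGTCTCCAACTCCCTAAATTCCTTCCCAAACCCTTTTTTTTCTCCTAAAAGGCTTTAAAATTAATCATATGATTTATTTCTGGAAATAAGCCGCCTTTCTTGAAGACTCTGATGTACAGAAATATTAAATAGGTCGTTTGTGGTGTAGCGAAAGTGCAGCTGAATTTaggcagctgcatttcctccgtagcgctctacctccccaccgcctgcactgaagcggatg
None of the 4 motifs searched on both strands occurs in this window: TGANTCA of AP-1, CACGTG of the TFEB family, GCGTGGGCG of EGR factors and GTAAACA of FOXO factors. Of 32851 such windows in the RefSeq table, 7.81%, 7.15%, 0.612% and 3.65% hold them, in that order. The table matched 4 of the 5 members, Atg13, Ulk1, Ulk2 and Atg101, and the windows of the other 3 matched members hold none of the 4 motifs either. That these letters are missing from the windows says nothing about the factors themselves.

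ATG13 is the adaptor that ties the kinase to the scaffold, and its phosphorylation by mTORC1 keeps the complex inactive. Atg13 stood at 21.24, 18.90 and 20.80 FPKM in the DMSO libraries, at 35.58 and 37.04 in Gem and at 46.45 and 39.53 in HU. The 4 drug libraries lay above the 3 DMSO libraries with no overlap, the lowest drug value being 35.58 and the highest DMSO value 21.24, and both HU values lay above both Gem values. Group means were 20.3 ± 1.24 (SD, n = 3), 36.3 ± 1.03 (n = 2) and 43.0 ± 4.89 (n = 2). On the log2(FPKM + 1) scale, which understates changes of low values, the difference from DMSO was 0.81 ± 0.10 (SE) in Gem and 1.04 ± 0.10 in HU. After scaling these differences were 1.10 ± 0.11 and 1.39 ± 0.11. The difference of Gem from HU was -0.23 ± 0.11 as deposited, and it was -0.12 without HU 1 and -0.35 without HU 2. These values chose the gene and support nothing further.

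Among the 8491 tested genes with a mean of at least 5 FPKM, 48 had a larger log2 difference than Atg13 in Gem and 39 in HU. Over all 13865 genes tested the numbers were 386 and 532, many of them with low levels. As background, 1.5% of all tested genes passed as higher in Gem and 4.46% in HU, whereas 23.2% and 35.5% passed as lower (limma, Benjamini-Hochberg adjusted p below 0.05). After scaling 0.483% and 4.67% passed as higher and 0.469% and 5.42% as lower.

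**Figure D1:**
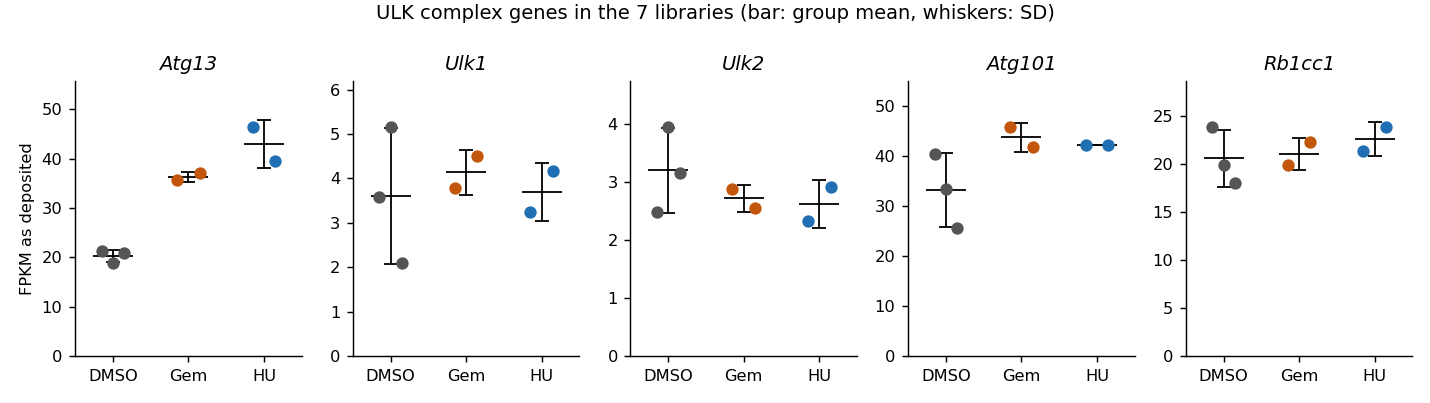
FPKM as deposited (y axis) of the 5 ULK complex genes in each library, by treatment; points are libraries, bars group means and whiskers the SD. Atg13 sits between 35.58 and 46.45 in the 4 drug libraries and between 18.90 and 21.24 in DMSO, while Ulk1, Ulk2 and Rb1cc1 overlap between DMSO and drug libraries.

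ATG101 binds ATG13 and stabilises it, the pair folding together through related HORMA domains. Atg101, on chromosome 15 (101284272 to 101290945, plus strand), was at 40.42, 33.34 and 25.69 FPKM in DMSO, at 45.84 and 41.71 in Gem and at 42.26 and 42.15 in HU. Every drug library lay above the highest DMSO library, but by a narrow margin, 41.71 against 40.42, and the DMSO libraries were spread widely. How many of all genes lie apart in this way was not counted, so this order of the Atg101 libraries is a description. Means were 33.2 ± 7.37 (SD, n = 3), 43.8 ± 2.92 (n = 2) and 42.2 ± 0.0778 (n = 2). The log2 fold change was 0.41 ± 0.17 (SE) in Gem and 0.36 ± 0.17 in HU, with limma adjusted p = 0.111 and 0.125, so neither difference passed as deposited. The 95% intervals ran from 0.02 to 0.80 and from -0.03 to 0.75.

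Scaling changed the call of Atg101 in HU. It then stood at 35.08, 28.92 and 23.00 in DMSO, at 48.51 and 46.05 in Gem and at 48.20 and 46.94 in HU. The scaled log2 fold change was 0.71 ± 0.16 (SE) in both drugs, with limma adjusted p = 0.0872 in Gem and 0.0311 in HU. Thus 1 of the 4 partners passed as higher in HU after scaling, where 4.67% of all genes did. That call in HU was kept without DMSO 1 (adjusted p = 0.038) and without DMSO 3 (0.0254). It was lost without DMSO 2, Gem 1, Gem 2, HU 1 or HU 2 (adjusted p = 0.077, 0.0637, 0.0641, 0.161 and 0.148). As deposited, Atg101 passed in both drugs without DMSO 1 (0.56 in Gem, adjusted p = 0.0489, and 0.51 in HU, 0.0345). It also passed when the 4 drug libraries were set together against DMSO (0.39, limma adjusted p = 0.0456). DMSO 3 held the lowest Atg101 value, and without it the log2 fold changes as deposited were 0.25 and 0.20 (limma adjusted p = 0.149 and 0.205).

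RB1CC1 is the scaffold to which the ATG13 and ATG101 pair docks and through which the complex is recruited to membranes and to cargo receptors. Rb1cc1, on chromosome 1 (6206197 to 6276648, plus strand), was at 23.86, 19.92 and 18.05 FPKM in DMSO, at 19.88 and 22.25 in Gem and at 21.36 and 23.81 in HU. The 3 groups overlapped. Log2 fold changes were 0.04 ± 0.13 (SE, limma adjusted p = 0.86) in Gem and 0.13 ± 0.13 (0.443) in HU, with 95% intervals from -0.27 to 0.34 and from -0.17 to 0.44. After scaling they were 0.32 ± 0.12 (adjusted p = 0.249) and 0.48 ± 0.12 (0.0538). An antisense gene, 4732440D04Rik, overlaps Rb1cc1, and since the labels' protocols do not say that reads carry strand, reads of the pair may not be told apart.

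ULK1 and ULK2 are the alternative kinases of the complex, which phosphorylate its other subunits and the lipid kinase complex that acts next. Both genes had low levels. Ulk1, on chromosome 5 (110784488 to 110810097, minus strand), was at 3.58, 5.16 and 2.09 FPKM in DMSO, 3.78 and 4.50 in Gem and 3.24 and 4.16 in HU. The DMSO libraries enclosed all 4 drug libraries, and the log2 fold changes were 0.21 ± 0.28 (SE, limma adjusted p = 0.613) and 0.08 ± 0.28 (0.847). The 95% intervals were wide, -0.45 to 0.87 in Gem and -0.58 to 0.73 in HU. No comparison with Atg13 is drawn from these intervals, because the values of Atg13 chose the set. Without DMSO 3, which had the lowest Ulk1 value, the log2 fold changes were -0.05 and -0.18.

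Ulk2, on chromosome 11 (61775649 to 61855073, minus strand), was at 2.49, 3.95 and 3.16 FPKM in DMSO, 2.88 and 2.55 in Gem and 2.33 and 2.91 in HU. The groups overlapped here too, with log2 fold changes of -0.16 ± 0.19 (SE, limma adjusted p = 0.564) and -0.20 ± 0.19 (0.431). The 95% intervals ran from -0.62 to 0.29 in Gem and from -0.66 to 0.25 in HU. After scaling the sign turned, with 0.06 ± 0.19 in both drugs (limma adjusted p = 0.91 and 0.874). Between Gem and HU, where 0.101% of all genes tested passed, 0 of the 4 partners did, with limma adjusted p from 0.85 to 0.97 as deposited, and 0 had an unadjusted p under 0.05. For Atg101 this difference was 0.05, with a 95% interval from -0.38 to 0.48.

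**Figure D2:**
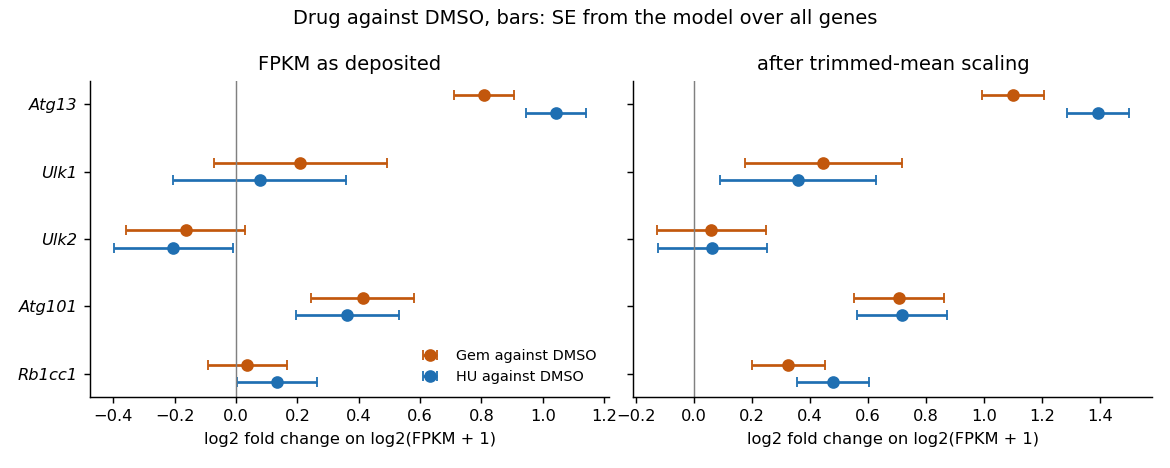
Log2 fold change (x axis, on log2(FPKM + 1)) of each ULK complex gene in Gem and in HU against DMSO, as deposited on the left and after trimmed-mean scaling on the right; points are model estimates and bars their SE. Atg13 stands at 0.81 and 1.04 as deposited, and Atg101 is next at 0.41 and 0.36.

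Ratios between genes of one library do not depend on any single factor by which a library is scaled, though quantile normalization can change them. The ratio of Atg13 to Rb1cc1 FPKM was 0.89, 0.949 and 1.15 in DMSO, 1.79 and 1.66 in Gem and 2.17 and 1.66 in HU. The drug libraries lay above all DMSO libraries in this ratio. Ratios and shares that hold Atg13 carry the values that chose the gene, so they are a description and support nothing further. The ratio of Atg13 to Atg101 was 0.525, 0.567 and 0.81 in DMSO, 0.776 and 0.888 in Gem and 1.1 and 0.938 in HU, so that DMSO 3 lay among the Gem libraries. The ratio of Atg101 to Rb1cc1 was 1.69, 1.67 and 1.42 in DMSO, 2.31 and 1.87 in Gem and 1.98 and 1.77 in HU. The lowest drug value of that ratio, 1.77, again lay just above the highest DMSO value, 1.69.

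FPKM is per length, and levels of different genes are set side by side here as a description. The RNA was amplified, and the annotation behind the values is not stated. Exonic lengths in GENCODE range from 1597 bases for Atg101 to 14690 for Rb1cc1, and whether these points affect the order was not tested. Atg101 had the highest FPKM of the 5 in 6 of the 7 libraries, and in HU 1 Atg13 was first. In DMSO 1 and DMSO 2 Rb1cc1 stood between Atg101 and Atg13, whereas in DMSO 3 and all 4 drug libraries Atg13 stood above Rb1cc1. In DMSO the levels of Atg13 and Rb1cc1 did not differ beyond their spread (20.3 ± 1.24 and 20.6 ± 2.97), and neither did those of Ulk1 and Ulk2 (3.61 ± 1.54 and 3.20 ± 0.731). Of the summed FPKM of the 5 genes, the DMSO libraries had 23.2% to 29.8% in Atg13, the Gem libraries 33.0% and 34.3% and the HU libraries 40.2% and 35.1%. Rb1cc1 took 24.5% to 26.1%, 18.4% to 20.6% and 18.5% to 21.2%. Ulk1 and Ulk2 together were a small part: Ulk1 took 2.80% to 6.35% and Ulk2 2.01% to 4.86% over the 7 libraries.

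The genes next to Atg13 on the chromosome gave other values. Harbi1, which shares the start region printed above, was at 8.24, 8.83 and 8.01 FPKM in DMSO, 8.77 and 7.20 in Gem and 7.14 and 7.48 in HU. Its log2 fold changes were -0.06 ± 0.12 (SE, limma adjusted p = 0.728) and -0.17 ± 0.12 (0.293). After scaling they were 0.20 and 0.15 (adjusted p = 0.405 and 0.451), so that its direction depends on the scaling. The ratio of Atg13 to Harbi1 was 2.58, 2.14 and 2.60 in DMSO, 4.06 and 5.14 in Gem and 6.51 and 5.28 in HU, with no overlap between drug and DMSO libraries. That separation, too, carries the values of Atg13 that chose it and is a description only.

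Arhgap1, which encodes a GTPase-activating protein and whose end lies 2292 bases from that of Atg13, was at 43.92, 45.64 and 46.13 FPKM in DMSO, 36.64 and 34.73 in Gem and 34.95 and 34.80 in HU. It fell as deposited (-0.33 and -0.37, limma adjusted p = 0.0168 and 0.00678), by about as much as the median gene, and not after scaling (-0.04 and -0.01, adjusted p = 0.831 and 0.935). Its call in Gem was lost without Gem 1 or Gem 2 (limma adjusted p = 0.0522 and 0.112). The pseudogene Gm13776 was at most 0.39 FPKM and was not tested.

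The genes whose log2(FPKM + 1) followed Atg13 most closely over the 7 libraries were, by Pearson's r among 7956 ranked genes, Ythdc2 (0.986), Fos (0.978), Jun (0.974), Nedd4l (0.962), Egr1 (0.960) and Nfkb2 (0.959). Ythdc2 encodes an RNA helicase, Fos and Jun encode subunits of AP-1, Nedd4l a ubiquitin ligase, Egr1 a zinc finger factor and Nfkb2 a subunit of NF-kB. The libraries fall into treatment groups and share their depth and handling, so these correlations describe one contrast and carry no p. Ythdc2 was closest in size, at 3.12 ± 0.621 FPKM in DMSO (SD, n = 3), 6.45 ± 0.283 in Gem (n = 2) and 9 ± 1.74 in HU (n = 2), with HU 1 again the highest library. Jun was at 18.0 ± 3.29, 148 ± 6.36 and 157 ± 10.3 FPKM and Fos at 27.9 ± 1.72, 128 ± 8.29 and 135 ± 3.90. Nedd4l moved least of the 6, from 7.19 ± 0.257 to 9.12 ± 0.573 and 9.77 ± 1.05. The most opposite patterns were those of Manea (-0.996), Apoo (-0.995) and Magohb (-0.995), all of which were lower in the drug libraries as deposited. In Gem and HU the log2 fold changes of Manea were -0.37 and -0.51 as deposited and -0.11 and -0.20 after scaling. Those of Apoo were -0.52 and -0.72 as deposited and -0.23 and -0.37 after scaling. Those of Magohb were -0.87 and -1.01 as deposited and -0.58 and -0.67 after scaling. The r values rest on FPKM as deposited.

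**Figure D3:**
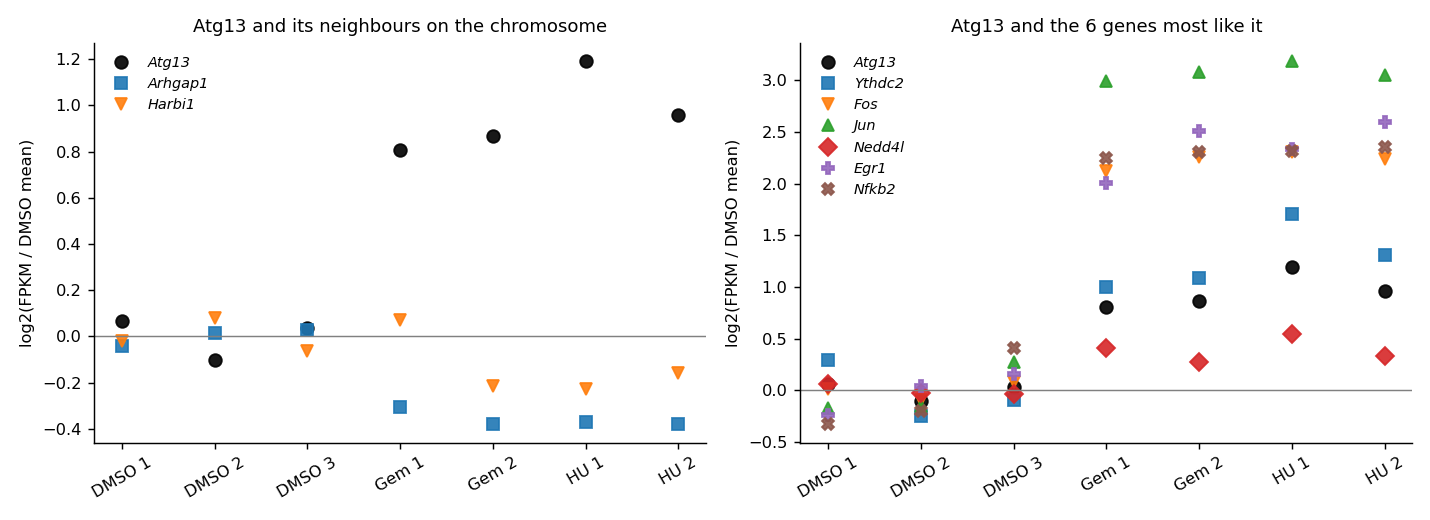
Level of each gene in each library relative to its DMSO mean, as log2 of the FPKM ratio (y axis); the left panel shows Atg13, Harbi1 and Arhgap1, the right panel Atg13 and the 6 genes with the highest r. In the drug libraries Atg13 is above its DMSO mean in all 4, Arhgap1 is below its mean in all 4, and the rises of Jun, Fos, Egr1 and Nfkb2 are larger than that of Atg13.

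The other genes of the autophagy pathway were taken from 10 lists by role, 106 genes in all, of which 103 were tested. In Gem 0 of the 103 rose and 29 fell in limma (28.2% fell, against 23.2% of all genes), with a median log2 fold change of -0.22 against -0.25 over all genes tested. An unadjusted limma p under 0.05 was found for 46 of the 103 in Gem, and for 5498 of all 13865 genes tested. In HU 3 passed as higher, of which Stk36 reached the filter of 1 FPKM only in the HU libraries, and 48 fell (46.6%, against 35.5%), with a median of -0.33 against -0.30. Over all genes tested 4.46% rose in HU as deposited. After scaling 1 of the 103 fell in Gem (0.971%, against 0.469% of all genes), with 14 at an unadjusted limma p under 0.05. In HU 3 rose, where 4.67% of all genes did, and 3 fell (2.91%, against 5.42%), with 30 at an unadjusted p under 0.05. Of all 13865 genes tested, 2338 in Gem and 3490 in HU had such a p after scaling. Scaled medians were 0.06 in Gem and 0.01 in HU, beside 0.01 and 0.01 over all genes. On log2(FPKM + 1), as deposited and scaled, 0 of the 103 had a difference above that of Atg13 in Gem or in HU, but Atg13 was chosen for this difference. With a pseudocount of 0.1 Stk36, a gene of very low level, stood at 2.18 in HU against 1.07 for Atg13. The counts as deposited rested on single libraries: in Gem 0 genes fell without Gem 2, 11 without Gem 1, 13 without DMSO 1 and 18 without DMSO 2. The calls over all genes tested, in either direction, dropped too, from 3421 in Gem to 12, 1417, 1499 and 2115. Each fall in Gem named below was therefore lost without Gem 2. In HU 27 fell without HU 1 and 30 without HU 2, with calls over all genes going from 5541 to 3035 and 3651. Of the other autophagy genes, 0 passed between Gem and HU in limma, 10 having an unadjusted p under 0.05. Over all 13865 genes tested, 0.101% passed in this comparison and 1484 had an unadjusted p under 0.05.

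**Figure D4:**
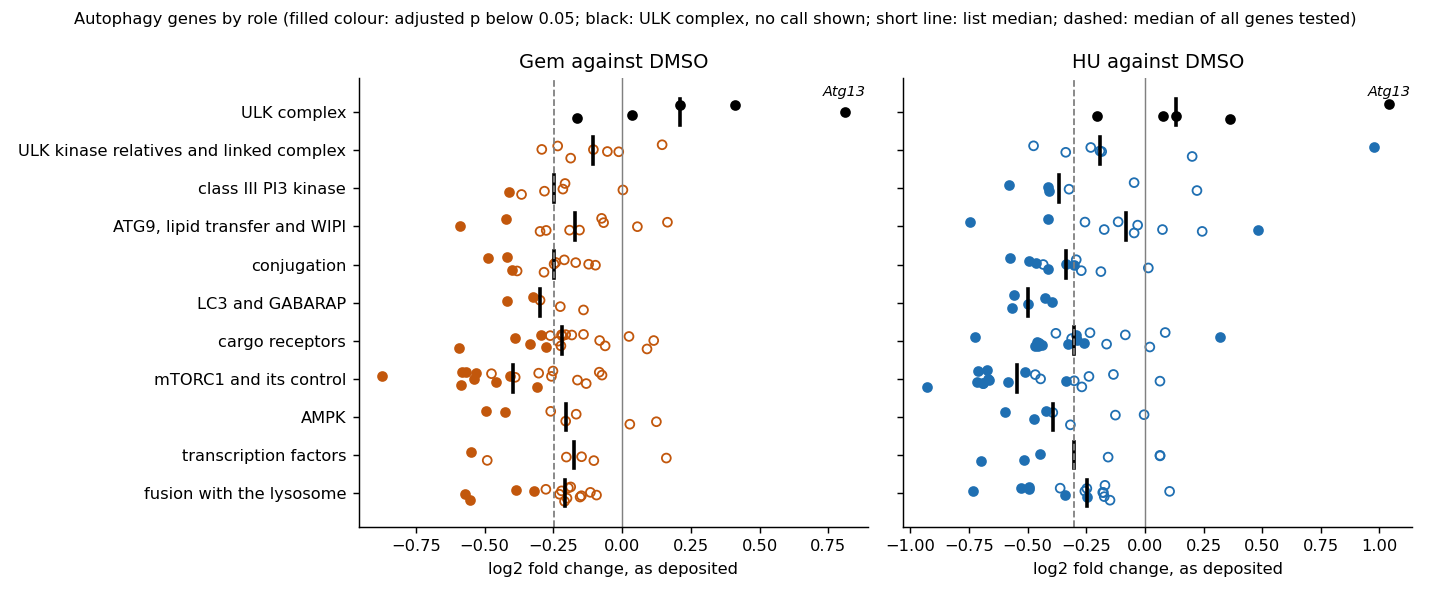
Log2 fold change as deposited (x axis) of each tested gene by role (rows), in Gem on the left and HU on the right; filled coloured points passed at an adjusted p below 0.05, black points are the ULK complex and show no call, short lines are list medians and the dashed line is the median of all genes tested (-0.25 in Gem, -0.30 in HU). Atg13, at 0.81 and 1.04, lies at the right on this log2(FPKM + 1) scale, with Stk36 near it in HU.

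Upstream of the complex, 9 of 18 genes of mTORC1 and its control fell in Gem and 10 in HU as deposited, 0 rising. These are 50% and 55.6%, beside 23.2% and 35.5% of all genes tested. List medians were -0.40 and -0.55, against -0.25 and -0.30 over all genes. After scaling 1 of the 18 fell in Gem and 2 in HU, beside 0.469% and 5.42% of all genes. The falls as deposited were led by subunits of the Ragulator, which anchors mTORC1 to the lysosome. Lamtor2 was at 232.69, 241.85 and 194.75 FPKM in DMSO, 125.88 and 115.99 in Gem and 116.25 and 115.75 in HU. It fell on both scales: by 0.87 in Gem and 0.93 in HU as deposited (SE 0.10, limma adjusted p = 0.00575 and 0.00127) and by 0.57 in both after scaling (adjusted p = 0.0409 and 0.0134). Lamtor3 fell from 135 ± 2.69 to 90.6 ± 2.93 and 81.8 ± 8.89 FPKM (limma adjusted p = 0.0072 and 0.00135), and after scaling in HU only (adjusted p = 0.145 and 0.0295). Rheb, the GTPase that switches mTORC1 on, fell from 79.8 ± 3.08 to 59.9 ± 0.113 and 49.9 ± 5.33 FPKM, as deposited only. The kinase gene Mtor itself was at 4.41 to 5.24 FPKM in DMSO and 3.55 to 4.58 in the drug libraries and passed in neither drug (limma adjusted p = 0.226 and 0.488).

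Of 7 tested AMPK genes 2 fell in Gem and 3 in HU as deposited, and 0 after scaling. The shares as deposited, 28.6% and 42.9%, were near the 23.2% and 35.5% of all genes. Prkab1, a beta subunit, fell in both drugs (33.4 ± 4.51, 24.5 ± 1.47 and 21.6 ± 0.00707 FPKM, limma adjusted p = 0.0397 and 0.00775). Prkaa1, the catalytic subunit, and Prkag1, a gamma subunit, fell in HU (limma adjusted p = 0.0167 and 0.00835), with log2 fold changes of -0.42 and -0.47. Their differences in Gem, -0.17 and -0.26, did not pass (0.274 and 0.0884).

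Among transcription factors of lysosome and autophagy genes, Tfeb, Tfe3 and Mitf passed in neither drug on either scale. Tfeb was at 10.68, 11.60 and 9.59 FPKM in DMSO, 10.79 and 8.89 in Gem and 10.30 and 12.01 in HU, groups that overlapped. Tfe3 had log2 fold changes of -0.20 and -0.16 and Mitf of 0.16 and 0.06. Tfec, the fourth gene of that family, fell from 86.1 ± 1.14 to 58.6 ± 3.92 FPKM in Gem and 52.6 ± 2.91 in HU (limma adjusted p = 0.00687 and 0.0012), and after scaling in HU only (adjusted p = 0.148 and 0.0286). Foxo3 and Zkscan3, a repressor of autophagy genes, fell in HU as deposited (-0.52 and -0.45, limma adjusted p = 0.0418 and 0.00721) and did not pass in Gem (-0.49 and -0.15) or after scaling. Foxo1 was below the filter.

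Of the kinase relatives and linked genes, 0 of 7 tested passed in Gem, where 1.5% of all genes rose and 23.2% fell as deposited. Ulk3, a kinase of the same family, averaged 7.85 ± 1.72, 7.60 ± 2.45 and 5.30 ± 0.424 FPKM in the 3 groups and passed in neither drug (limma adjusted p = 0.881 and 0.122), and Ulk4 was at most 0.77 FPKM and not tested. Stk36, another relative, was at 0.13, 0.17 and 0.60 FPKM in DMSO, 0.42 and 0.42 in Gem and 2.12 and 1.05 in HU. It entered the test only through its HU values, so its call as higher in HU as deposited supports nothing, and it did not pass after scaling. C9orf72, whose product forms a complex with those of Smcr8 and Wdr41 that works with the ULK complex, was at 10.9 ± 0.530, 10.8 ± 0.820 and 12.8 ± 1.96 FPKM and passed as higher in HU after scaling only (0.54, adjusted p = 0.0451).

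Downstream, the class III PI3 kinase is the first target of the ULK kinases and makes the lipid that marks the growing membrane. Becn1, which encodes its subunit Beclin 1, was at 90.71, 98.94 and 92.44 FPKM in DMSO, 74.37 and 66.53 in Gem and 62.02 and 63.21 in HU. It fell by 0.41 and 0.58 as deposited (SE 0.08, limma adjusted p = 0.0125 and 0.00206), and differed by -0.11 and -0.22 after scaling (adjusted p = 0.458 and 0.0926). Pik3c3, the catalytic subunit, and Nrbf2 fell in HU as deposited (-0.41 for each, limma adjusted p = 0.0239 and 0.00863). Uvrag (-0.37 and -0.32), Pik3r4 (-0.21 and -0.05) and Rubcn (0.003 and 0.22) did not pass. In all, 1 of 6 fell in Gem and 3 in HU, and 0 after scaling. Over all genes, 23.2% and 35.5% fell as deposited.

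Of 10 genes for ATG9 vesicles, lipid transfer and WIPI proteins, 2 fell in each drug and 1 rose in HU. The share that fell was 20% in each drug, beside 23.2% and 35.5% of all genes, of which 4.46% rose in HU. The transmembrane protein gene Vmp1, needed for the membrane to close and detach, fell from 278 ± 17.4 to 185 ± 1.33 and 167 ± 30.2 FPKM (limma adjusted p = 0.0133 and 0.00303), and Wdr45 fell from 28.7 ± 2.49 to 21.1 ± 0.431 and 21.4 ± 3.46 (0.0401 and 0.0302). Neither passed after scaling. Atg2a, which encodes a lipid transfer protein, was at 4.82, 4.18 and 3.89 FPKM in DMSO, 4.64 and 5.22 in Gem and 6.02 and 6.76 in HU. It rose in HU on both scales (0.48 ± 0.14, SE, limma adjusted p = 0.0292, and 0.78 after scaling, 0.0169) and passed in Gem on neither (0.412 and 0.193). As deposited the call in HU was lost without HU 1, HU 2, DMSO 2 or DMSO 3 (limma adjusted p = 0.0714, 0.129, 0.0709 and 0.0653).

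The conjugation enzymes attach LC3 and GABARAP proteins to the membrane, and 3 of 11 fell in Gem and 6 in HU, 0 on the scaled values. As deposited these are 27.3% and 54.5%, beside 23.2% and 35.5% of all genes. Atg3 fell from 65.4 ± 2.74 to 49.3 ± 1.05 and 47.1 ± 2.16 FPKM (limma adjusted p = 0.0115 and 0.00335). Atg4a, of the ATG4 protease family, fell from 14.8 ± 0.790 to 10.8 ± 0.495 and 9.61 ± 0.113 FPKM (limma adjusted p = 0.021 and 0.00413). Atg7, the first enzyme of the cascade, fell in HU (-0.41, limma adjusted p = 0.00777) and was at -0.17 in Gem (0.174).

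All 5 LC3 and GABARAP genes fell in HU as deposited and 2 of 5 in Gem, with 0 after scaling. Over all genes, 35.5% fell in HU and 23.2% in Gem as deposited. Gabarap fell from 320 ± 18.3 FPKM to 255 ± 9.67 and 215 ± 1.27 (limma adjusted p = 0.02 and 0.00183) and Gabarapl1 from 96.2 ± 3.30 to 71.7 ± 0.530 and 65.1 ± 3.51 (0.00932 and 0.00169). Map1lc3a, Map1lc3b and Gabarapl2 had log2 fold changes of -0.43, -0.40 and -0.50 in HU (limma adjusted p = 0.00714, 0.0198 and 0.0129) and of -0.14, -0.30 and -0.22 in Gem, which did not pass. Their scaled changes in HU were -0.07, -0.04 and -0.14.

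Of 18 cargo receptor genes 5 fell in Gem and 10 in HU, and 1 rose in HU. The share that fell was 27.8% and 55.6%, beside 23.2% and 35.5% of all genes, of which 4.46% rose in HU. Phb2, a mitochondrial protein that acts as a receptor for mitophagy, fell from 191 ± 17.0 to 126 ± 5.17 and 115 ± 4.51 FPKM (limma adjusted p = 0.00761 and 0.00155). Tax1bp1 fell from 95.8 ± 4.12 to 78.9 ± 4.04 and 69.6 ± 2.20 (0.0322 and 0.0036), and Ncoa4, the receptor for ferritin, from 190 ± 9.21 to 150 ± 8.96 and 137 ± 5.92 (0.0203 and 0.00376). None of these 3 passed after scaling. The gene that rose was Calcoco1, at 8.16 ± 0.400, 8.32 ± 0.424 and 10.4 ± 0.106 FPKM, which passed in HU on both scales (limma adjusted p = 0.0415 and 0.0136) and was named after its values were seen. Sqstm1, which encodes the receptor p62 and was also named for its familiarity, was at 772.04 to 995.73 FPKM in DMSO and 717.43 to 841.25 in the drug libraries and did not pass (limma adjusted p = 0.31 and 0.327).

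Of 15 genes for fusion with the lysosome 4 fell in Gem and 6 in HU, and 0 after scaling. As deposited these are 26.7% and 40%, near the 23.2% and 35.5% of all genes. Rab7, the GTPase of late endosomes, fell from 232 ± 8.56 to 177 ± 3.97 and 161 ± 7.96 FPKM (limma adjusted p = 0.011 and 0.0019) and the SNARE gene Stx7 from 84.5 ± 4.66 to 67.4 ± 2.47 and 59.6 ± 4.54 (0.03 and 0.00408). Vamp8, another SNARE gene, was at 284.40, 281.00 and 202.66 FPKM in DMSO and between 150.56 and 171.66 in the drug libraries, with limma adjusted p = 0.0283 and 0.00716.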

How the data were processed

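The authors deposited 1 table of FPKM for 52224 genes in 7 libraries, named by symbol, with 0 columns left unused. Among the tools in the submitters' processing notes are Cufflinks 2.1.1, Bowtie 0.12.9, DESeq2 and HTSeq, beside build mm10; the step each served, and the annotation behind the values, are not stated there. Per the labels' protocols, RNA was extracted with a miRNeasy kit, amplified by Geo-seq, a method for small inputs, and made into libraries with a TruePrep kit. A search for the value of 1 fragment put 30% to 35.5% of low values within 0.1 of whole steps, against 20% by chance for a step not fitted to them, so no reads were recovered, and no intervals from counting are given.

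Values were tested as log2(FPKM + 1) with limma 3.58.1 (R 4.3.3) for the genes that reached 1 FPKM in 2 or more libraries, in one model of the 3 groups with 4 residual degrees of freedom and a mean-variance trend, two-sided, with Benjamini-Hochberg adjustment over all 13865 genes; calls are at an adjusted p below 0.05. Trimmed-mean scaling left out 30% of ratios and 5% of levels at each end. On simulated data 100% of genes changed by 1 log2 unit, and 100% of those changed by 2, were recovered in Gem and in HU against DMSO among 13865 genes, with 12 and 11 false calls. The changed genes had a mean log2(FPKM + 1) above 3, and the simulated spread was averaged over genes of like level. Ulk1 and Ulk2 lie below that level. The recovery therefore does not extend to them, or to genes with a wider spread than others of their level. Changes below 1 log2 unit, as most of those in the text are, and differences in scale between libraries were not simulated. The recovery does not extend to these either. Library numbers are not said to pair the libraries.

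Members and lists were chosen with earlier results of these data known. The text names the members, Ulk3 and Ulk4, up to 3 genes of smallest p among those called in each list, all tested members of the LC3 and GABARAP, PI3 kinase and transcription factor lists, the 6 highest and 3 lowest correlates of Atg13 with a mean of at least 5 FPKM, and genes within 10 kb of it. Mtor, Sqstm1, C9orf72 and Calcoco1 fall outside this rule and were picked with their values known, and Foxo1 and marker genes are named as list members. Alternatives were another pseudocount, other filters and scalings, no trend, library weights, a replicate block, other groupings and leaving out each library; scaling with a library left out was added after the data were seen, for Atg101. Coordinates are from GENCODE M21 (GRCm38, the assembly of mm10); figures were drawn in Python 3.11.15.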

Additional observations from a re-analysis of the deposited data

How the results depend on the processing

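Each alternative re-used the values that chose Atg13, so the differences given here are a description and support nothing further. Atg13 was higher in Gem and in HU under every alternative run. As deposited it was 0.81 and 1.04 on the log2 scale, with the libraries brought to the same sum 1.01 and 1.39, with quantile normalization 1.13 and 1.47, with trimmed-mean scaling 1.10 and 1.39, and with one library left out 0.76 to 0.84 in Gem and 0.93 to 1.16 in HU. For Gem against HU, -0.23 as deposited, Atg13 was -0.37 with the same sum and -0.34 with quantile normalization, and -0.35 to -0.12 with a library left out.

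For Atg101 in HU the log2 fold change was 0.70, 0.81 and 0.71 under those 3 scalings (limma adjusted p = 0.0359, 0.0396 and 0.0311), 0.39 in HU and 0.39 in Gem with the 4 drug libraries together (0.0456), and 0.20 to 0.51 in HU and 0.25 to 0.56 in Gem with a library left out. With scaling and a library left out together it was 0.56 to 0.86 in HU and 0.55 to 0.85 in Gem. For Gem against HU Atg101 turned from 0.05 to -0.09 with the same sum, -0.05 with quantile normalization, -0.01 with trimmed-mean scaling and -0.02 without Gem 1. The other partners passed under no alternative, and their signs turned in Gem for Rb1cc1 (0.04) to -0.03 with library weights and -0.05 to -0.04 without DMSO 3 or Gem 2; for Ulk1 (0.21) to -0.05 without DMSO 3, the range with a library left out being -0.05 to 0.45; and for Ulk2 (-0.16) to 0.06 with trimmed-mean scaling. In HU Ulk1 (0.08) turned to -0.01 with library weights and to -0.18 and -0.06 without DMSO 3 or HU 2 (range -0.18 to 0.31), and Ulk2 (-0.20) to 0.05 with the same sum and 0.06 with trimmed-mean scaling. For Gem against HU Ulk1 turned to -0.01 without HU 1, and Ulk2 to -0.07, -0.0031, -0.02 and -0.08 with the same sum, with trimmed-mean scaling, without Gem 1 and without HU 1. Ulk1 and Ulk2 are not tested with a mean of at least 5 FPKM.

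Correlations of the deviations of same-numbered libraries from their group means ran from -0.074 to 0.055. With 2 libraries in each drug group the deviations mirror each other, so these correlations cannot show whether libraries were paired. Number 3 occurs only in DMSO, so a replicate block gives the log2 fold changes found without DMSO 3 and is no separate check of them. With a replicate block, Atg13 was 0.83 and 1.06 in Gem and HU, Rb1cc1 -0.05 in Gem, Ulk1 -0.05 and -0.18, and Tfeb -0.00076 in HU, and the number of other autophagy genes that fell was 21 and 40, with 1 called higher in HU.

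Of the other autophagy genes, 29 fell in Gem as deposited, but 11 with no filter, 15 with no trend, 2 with the same sum, 0 with quantile normalization, 1 with trimmed-mean scaling and 0 to 26 with a library left out. Over all genes tested, calls in either direction in Gem went from 3421 to 1509 of 39614 with no filter, 2132, 440, 69 and 132 under these settings in the same order. In HU 48 became 5, 0 and 3 under those scalings and 27 to 44 with a library left out; the 3 called higher became 1 with a mean of at least 5 FPKM and 0 to 2 with a library left out. Calls over all genes in HU went from 5541 to 1478, 559 and 1399 under the scalings.

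Results of other named genes that kept their direction lost their call 44 times with trimmed-mean scaling, 41 with the same sum, 31 with quantile normalization, 13 with no filter, 9 with no trend, 9 with the replicate block, 4 with only the 2 groups compared and 3 to 21 times with a library left out. Signs of these genes turned, 0 of them to a call. With quantile normalization they turned to Arhgap1 0.02, Atg7 0.20, Becn1 0.00096, Gabarap 0.08, Gabarapl2 0.14, Harbi1 0.18, Map1lc3a 0.21, Map1lc3b 0.15, Ncoa4 0.13, Nrbf2 0.12, Pik3c3 0.01, Pik3r4 0.04, Prkaa1 0.11, Prkag1 0.11, Rab7 0.06, Stk36 -0.23, Stx7 0.09, Tax1bp1 0.12, Tfe3 0.13, Tfeb 0.16, Ulk3 0.18 and Zkscan3 0.18 in Gem, and Arhgap1 0.08, Atg3 0.01, Atg7 0.06, Gabarap 0.03, Harbi1 0.12, Map1lc3a 0.01, Map1lc3b 0.20, Ncoa4 0.13, Pik3r4 0.26, Prkag1 0.0011, Rab7 0.07, Stx7 0.03, Tax1bp1 0.06, Tfe3 0.27 and Uvrag 0.05 in HU. With the same sum they turned to Atg7 0.03, Harbi1 0.12, Map1lc3a 0.06, Prkaa1 0.02, Tfeb 0.08, Ulk3 0.13 and Zkscan3 0.05 in Gem, and Harbi1 0.14, Pik3r4 0.27, Tfe3 0.18 and Uvrag 0.0016 in HU. With trimmed-mean scaling they turned to Atg7 0.13, Gabarapl2 0.07, Harbi1 0.20, Map1lc3a 0.15, Map1lc3b 0.0019, Nrbf2 0.07, Pik3r4 0.06, Prkaa1 0.11, Prkag1 0.04, Tax1bp1 0.02, Tfe3 0.09, Tfeb 0.17, Ulk3 0.21 and Zkscan3 0.15 in Gem, and Harbi1 0.15, Pik3r4 0.28, Tfe3 0.19 and Uvrag 0.02 in HU. With a library left out they turned in Gem for Rubcn to -0.03, Tfeb to 0.02, Mitf (range -0.04 to 0.35), Ulk3 to 0.10 and 0.24 and Harbi1 (-0.19 to 0.06), and in HU for Mitf to -0.13, Tfeb to -0.00076 and -0.04, Pik3r4 (-0.19 to 0.09) and Rubcn (-0.01 to 0.45). The causes were not tested. Where a left-out library leaves 1 in its group, that one is assumed to vary like the other groups. Sequencing depth is unknown, so the precision of low values such as those of Ulk1 and Ulk2 cannot be given.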
